A study of Sus scrofa with 79 samples.

Results

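The lymphoid chemokines CCL19, CCL21 and CXCL13, the receptor CCR7 and the scavenger ACKR4 were described in small intestine and blood of pigs. The genes were chosen by name, with earlier results of these data known, and a probe was counted when the accession on the array carried the RefSeq symbol of the gene. Of the 5 genes 4 had a probe, 1 each, among the 43603 probes of the array. CXCL13 had no probe under this rule, so its level is not given here.

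CCL19 and CCL21 are both ligands of CCR7, and they draw CCR7 positive T cells, B cells and dendritic cells into lymph nodes, Peyer's patches and other lymphoid tissue. CCL19 is made mainly by stromal cells of T cell areas and by mature dendritic cells, and CCL21 by the same stroma, by lymphatic endothelium and by high endothelial venules. CXCL13 attracts B cells into follicles through its receptor CXCR5, which like lymphotoxin beta (LTB) had no probe here. ACKR4 binds CCL19, CCL21 and the gut chemokine CCL25 without signalling through G proteins, takes them up and degrades them, and so shapes the gradients that CCR7 positive cells follow. In the gut these genes belong to the Peyer's patches, which in pigs form a long continuous patch in the ileum and separate patches in the jejunum, and to the lymphatics that dendritic cells use on their way to the lymph node.

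RNA of 4 piglets of the same treatment was pooled and hybridised to a 1-colour Agilent array made for pig. Treatment T1 received no disturbance, T2 a subcutaneous injection of 0.1 ml tulathromycin at day 4 at 2.5 mg/kg, and T3 the same injection together with docking, clipping and weighing. The treatments were mixed within the litter of each sow, T1 serves as the untreated control, and T3 differs from T2 by the handling procedures. Jejunum and ileum were sampled at days 8, 55 and 176 and blood at day 8, with 3 or 4 pools per group, 67 tissue arrays and 12 blood arrays in all. The ileum T2 pool 8 of days 8 and 55, the jejunum T2 pool 8 of day 55, the jejunum T2 pool 7 of day 176 and the ileum T3 pool 1 of day 176 were not analysed here. A level is the log2 of the background-subtracted intensity after quantile normalization over the 67 tissue arrays, or over the 12 blood arrays for blood. Levels of different genes come from different probes and were not set against each other. A difference was called when its fold exceeded 1.5 and its p from limma, adjusted after Benjamini-Hochberg, was below 0.05, over 30816 genes in the tissues. Because the genes were chosen with results of these data known, their differences and calls are given as a description, with standard errors and without p-values. The share of all genes that was called stands beside each comparison, and nothing is read from the count of chemokine genes against it. Overlap of ranges between groups is given as a description of the arrays. The share of all genes without overlap was not counted, so nothing is read from a lack of overlap.

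Several facts about the arrays bear on every comparison. Of the spots of a tissue array 42.4% to 75.2% were well above background, against 34.8% to 44.1% on a blood array. Arrays of the same group had a mean correlation from 0.835 to 0.988, and 5 tissue arrays stood apart with a value below 0.95 as the lowest of their group, namely jejunum T2 pool 8 of day 176 (0.835), jejunum T1 pool 9 of day 176 (0.931), ileum T1 pool 11 of day 8 (0.937), jejunum T3 pool 4 of day 176 (0.945) and jejunum T2 pool 8 of day 8 (0.9499). Each group was hybridised on 1 slide, so age and slide cannot be told apart, and comparisons between treatments on the same slide are named as such.

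The labels of days 8 and 55 were not free of doubt. In the authors' own table of normalized values, which gave no value used here, 44 tissue columns named for days 8 and 55 held the values of arrays that carry another label, always with the same treatment and pool. Columns named ileum day 8 matched the arrays labelled jejunum day 8, columns named jejunum day 8 the arrays labelled jejunum day 55, columns named ileum day 55 the arrays labelled ileum day 8, and columns named jejunum day 55 the arrays labelled ileum day 55. The 22 columns of day 176 matched their own arrays. The labels of the scanner files were kept. GATA4, a transcription factor of the proximal small intestine that is absent from the ileum, was at 5.88 to 8.25 on the arrays labelled jejunum day 55 and at 1.66 to 3.99 on those labelled ileum day 55, and likewise at 5.01 to 8.91 and 1.69 to 4.91 at day 176. At day 8 GATA4 did not separate the tissues, with 7.03 to 8.27 in jejunum and 6.13 to 8.30 in ileum. Under the names of the table, the arrays with the low GATA4 of day 55 would be jejunum. Comparisons of treatments within a tissue and day keep the same arrays under either set of names, except for jejunum T2 pool 8 of day 8. Its column and its array had no counterpart in this match. At days 8 and 55, however, the tissue or age of these comparisons would change. Under the names of the table, arrays labelled ileum day 8 would be ileum day 55, and those labelled jejunum day 8 would be ileum day 8. Arrays labelled jejunum day 55 would be jejunum day 8, and those labelled ileum day 55 would be jejunum day 55. The tissue difference of day 176 does not rest on the doubtful arrays. The tissue difference of days 8 and 55 and all differences with age do rest on them. So do the comparison of tissue with blood and the sharing of piglets at day 8. Under the names of the table the ileum minus jejunum difference of CCR7 at day 55 would be that between the arrays labelled ileum day 8 and ileum day 55, which is the day 55 minus day 8 difference of 4.29 given for ileum below with its sign turned.

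FABP6, the ileal bile acid binding protein, did not separate the tissues at any age. At day 55 it was at 14.02 to 18.52 in jejunum and at 17.81 to 18.33 in ileum. At day 176 it was at 7.52 to 18.45 in jejunum and at 18.28 to 18.67 in ileum. At day 8 it ran from 5.82 to 16.16 with a median of 11.45 on the 12 jejunum arrays and from 5.62 to 16.48 with a median of 13.31 on the 11 ileum arrays. The level at day 8 followed the pool and not the tissue, with 16.16 in jejunum and 16.48 in ileum for T1 pool 9, and 6.84 and 6.27 for T1 pool 12. T2 pools were mostly low, with a median over both tissues of 6.005, against 14.06 in T1. CD79A, a part of the B cell receptor, had a median of 5.01 in T2 and of 7.44 in T1 at day 8. Values of both genes are therefore given beside the chemokine results of that age.

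CCL19 was the most variable of the 4 genes in the intestine. In ileum it was at 7.86 to 13.18 with a median of 10.21 at day 8, at 13.48 to 15.54 with a median of 15.11 at day 55, and at 12.44 to 15.86 with a median of 13.90 at day 176 (n = 11 arrays each). In jejunum it was at 9.30 to 13.52 with a median of 10.30 at day 8 (n = 12), at 10.37 to 13.19 with a median of 12.34 at day 55 and at 8.18 to 13.34 with a median of 11.73 at day 176 (n = 11 each). Ordered by mean, ileum day 55 (14.97 ± 0.60, SD) came before ileum day 176 (14.24 ± 1.02), jejunum day 55 (11.997 ± 0.92), jejunum day 176 (11.29 ± 1.59), jejunum day 8 (10.67 ± 1.41) and ileum day 8 (10.19 ± 1.72), and the ranges of all neighbours in this order overlapped. Every CCL19 spot of the tissue arrays was well above background.

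CCR7, the receptor of both ligands, had the sharpest split between the tissues at the later ages. In ileum it was at 5.46 to 9.10 with a median of 7.41 at day 8, at 10.98 to 11.81 with a median of 11.31 at day 55, and at 10.57 to 12.66 with a median of 11.44 at day 176. In jejunum it was at 5.29 to 9.53 with a median of 7.46 at day 8, at 7.27 to 10.09 with a median of 7.85 at day 55, and at 6.70 to 9.38 with a median of 8.24 at day 176. The ileum arrays of days 55 and 176 thus lay above every other tissue array. Their means of 11.31 ± 0.28 and 11.43 ± 0.65 (SD, n = 11) were followed by jejunum day 55 (8.22 ± 0.82), jejunum day 176 (8.15 ± 0.87), jejunum day 8 (7.37 ± 1.54) and ileum day 8 (7.15 ± 1.48), and the last 4 overlapped with each other.

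CCL21, the ligand shared by stroma and lymphatic endothelium, had another order, with its top at day 8. In jejunum it was at 10.94 to 11.67 with a median of 11.13 at day 8, at 8.57 to 9.71 with a median of 9.25 at day 55 and at 7.66 to 8.95 with a median of 8.28 at day 176. In ileum it was at 9.68 to 11.13 with a median of 10.66 at day 8, at 8.86 to 10.51 with a median of 9.76 at day 55 and at 8.35 to 10.97 with a median of 8.89 at day 176. The means ran from jejunum day 8 (11.16 ± 0.20) and ileum day 8 (10.55 ± 0.45) through ileum day 55 (9.68 ± 0.51), ileum day 176 (9.26 ± 0.87) and jejunum day 55 (9.17 ± 0.35) to jejunum day 176 (8.33 ± 0.39), each neighbour overlapping with the next. The 12 jejunum arrays of day 8 lay closer together than those of any other tissue and age for this gene.

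ACKR4, the scavenger of both ligands, varied least between tissues and ages. Its means lay between 7.78 ± 0.35 in jejunum at day 8 and 8.58 ± 0.95 in jejunum at day 176, and the ranges of all 6 combinations of tissue and age overlapped. The other means were 8.54 ± 0.42 in jejunum at day 55 and, in ileum, 7.89 ± 0.97, 8.11 ± 0.50 and 8.24 ± 1.15 at days 8, 55 and 176. The SD was widest at day 176 and in ileum at day 8, and the treatments of these ages are described further on.

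**Figure D1:**
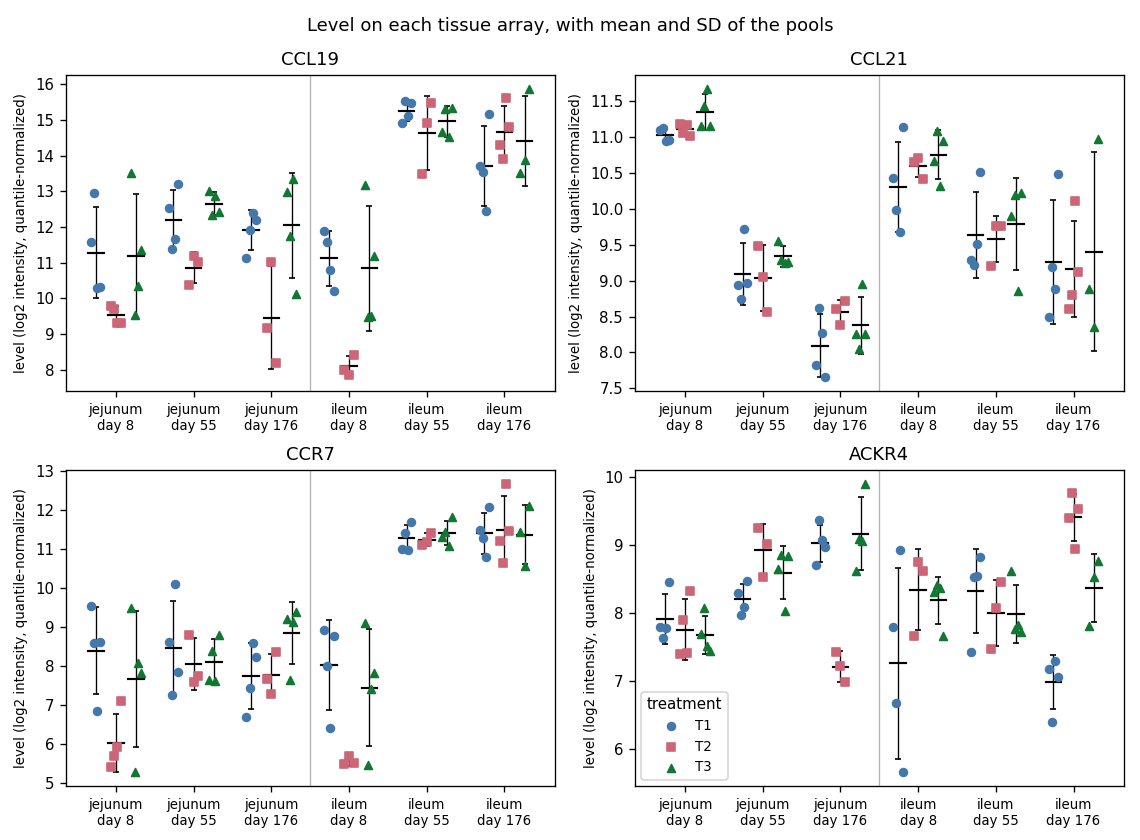
Level of each gene on each tissue array (log2 of the quantile-normalized intensity) by tissue and age, with T1 as circles, T2 as squares and T3 as triangles, and black bars for the mean and SD of the pools. CCL19 and CCR7 stood highest in ileum at days 55 and 176, CCL21 in both tissues at day 8, and ACKR4 of T2 lay below the other treatments in jejunum and above them in ileum at day 176.

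The comparison of ileum with jejunum asks where along the gut these genes are used. At day 8 none of the 4 differences was called, beside 2.5% of all genes. CCL19 differed by −0.65 (SE 0.42), CCL21 by −0.61 (SE 0.22), CCR7 by −0.35 (SE 0.38) and ACKR4 by 0.15 (SE 0.22), as ileum minus jejunum on the log2 scale. By the methods the 2 arrays of a pool share piglets at day 8, and these SEs leave that pairing out. Of 11 pools with both arrays, ileum was higher in 2 for CCL19, 1 for CCL21, 4 for CCR7 and 9 for ACKR4. In a fit of the day 8 tissue arrays alone CCL21 was called lower in ileum, also at −0.61. At day 55 CCL19 was higher in ileum by 3.04 (SE 0.43), 8.25-fold, and CCR7 by 3.104 (SE 0.38), 8.6-fold. Neither overlapped between the tissues, and both were called, as were 39.8% of all genes. CCL21 (0.51, SE 0.23) and ACKR4 (−0.47, SE 0.23) were not called there. At day 176 CCL19 was higher in ileum by 3.12 (SE 0.43), CCR7 by 3.30 (SE 0.38) and CCL21 by 0.93 (SE 0.23), which is 1.9-fold, and these 3 were called beside 28.8% of all genes. Only CCR7 was without overlap at that age, and ACKR4 differed by −0.22 (SE 0.23).

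The change of the tissue difference between ages was also called for CCL19, CCR7 and CCL21. From day 8 to day 55 the ileum minus jejunum difference rose by 3.69 (SE 0.60) for CCL19, by 3.46 (SE 0.54) for CCR7 and by 1.12 (SE 0.32) for CCL21, beside 34.4% of all genes called. From day 8 to day 176 it rose by 3.77 (SE 0.60), 3.66 (SE 0.54) and 1.54 (SE 0.32), beside 20.8%. For CCL21 this was a turn of sign, from −0.61 at day 8 to 0.51 at day 55 and 0.93 at day 176. Between days 55 and 176 no change of the tissue difference was called, beside 30.6%. Leaving out any 1 array kept the called differences of CCL19 and CCR7 at days 55 and 176 and that of CCL21 at day 176. The slides hold ileum and jejunum together only at days 8 and 176, and there in different treatments. On the slide shared at day 176, CCR7 was at 10.79 to 12.07 in ileum T1 and at 7.65 to 9.38 in jejunum T3, and CCL19 at 12.44 to 15.17 and 10.11 to 13.34. With the slide held fixed and the treatments taken as additive, the day 176 difference was 2.46 (SE 1.15) for CCR7, −1.01 (SE 1.28) for CCL19 and 1.60 (SE 0.68) for CCL21, and none of the 3 was called. ACKR4, at −0.22 before, was −5.03 (SE 0.68) in that fit and was called. The additive treatment term stands against the T2 minus T1 differences of ACKR4 and CCL19, which were not the same in both tissues at this age, as given below.

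Genes of B cells, which fill the follicles of the Peyer's patches, were higher in ileum at the later ages. Of the 5 B cell genes on the array 4 were tested, and 0 were called at day 8, 4 higher in ileum at day 55 and 4 higher at day 176. Of all genes 19.8% were called higher and 20% lower at day 55, and 14% and 14.8% at day 176. CD79A was higher in ileum by 3.92 (SE 0.62) at day 55 and by 4.86 (SE 0.62) at day 176, with adjusted p of 5.201e-07 and 6.086e-09 by limma. CD72, a B cell coreceptor that dampens signalling, was higher by 2.78 (SE 0.33, adjusted p = 6.772e-10) and 2.18 (SE 0.33, adjusted p = 3.489e-07). Of 9 T cell genes tested, 3 were higher and 1 lower in ileum at day 55, and 3 higher and 0 lower at day 176, beside 39.8% and 28.8% of all genes called either way. Of 8 epithelial genes 0 were higher and 6 lower at day 55, and 0 and 5 at day 176. Of 5 dendritic cell genes 1 was higher and 3 lower at day 55, and 1 and 1 at day 176. The part of these cell types in the tissue differences of CCL19 and CCR7 was not tested. In bulk tissue a larger share of lymphoid cells and more RNA per cell cannot be told apart.

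Among 11 genes of lymphotoxin and lymphoid organiser signalling, the pathway that induces CCL19, CCL21 and CXCL13 in stroma, 5 were higher and 4 lower in ileum at day 55. At day 176 the same 5 were higher and 1 lower. LTA, the lymphotoxin alpha subunit, was higher in ileum by 2.45 (SE 0.26, adjusted p = 1.631e-11) at day 55 and by 1.85 (SE 0.26, adjusted p = 4.119e-08) at day 176. ICAM1, an adhesion molecule of endothelium and stroma, was higher by 2.10 (SE 0.17, adjusted p = 5.627e-15) at day 55, and VCAM1, another, by 1.83 (SE 0.19, adjusted p = 4.102e-11) at day 176. IL7, a survival factor for lymphocytes made by stroma and epithelium, was lower in ileum by −1.74 (SE 0.24, adjusted p = 2.124e-08) and −0.86 (SE 0.24, adjusted p = 3.207e-03), and TNFRSF1A, a TNF receptor, by −0.86 (SE 0.12, adjusted p = 2.267e-08) at day 55. The median over the 11 genes was −0.25 at day 55 and 0.30 at day 176, against 0.03 and −0.07 over all genes.

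The other homing chemokines and receptors split in both directions. Of 10 genes tested 2 were higher and 5 lower in ileum at day 55, and 2 higher and 1 lower at day 176. CXCL12, a stromal chemokine, was higher by 1.73 (SE 0.27, adjusted p = 4.968e-07) and 1.78 (SE 0.27, adjusted p = 4.158e-07), and its receptor CXCR4 by 2.75 (SE 0.34, adjusted p = 1.764e-09) and 2.73 (SE 0.34, adjusted p = 3.373e-09). CCL25, the epithelial chemokine that ACKR4 also removes, was lower in ileum by −1.43 (SE 0.12, adjusted p = 6.531e-15) at day 55 and −1.59 (SE 0.12, adjusted p = 2.593e-16) at day 176. CCL27, which serves skin homing, was lower by −1.47 (SE 0.24, adjusted p = 7.075e-07) at day 55. Of the 3 ligands of ACKR4, CCL19 was thus higher and CCL25 lower in ileum at both later ages.

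**Figure D2:**
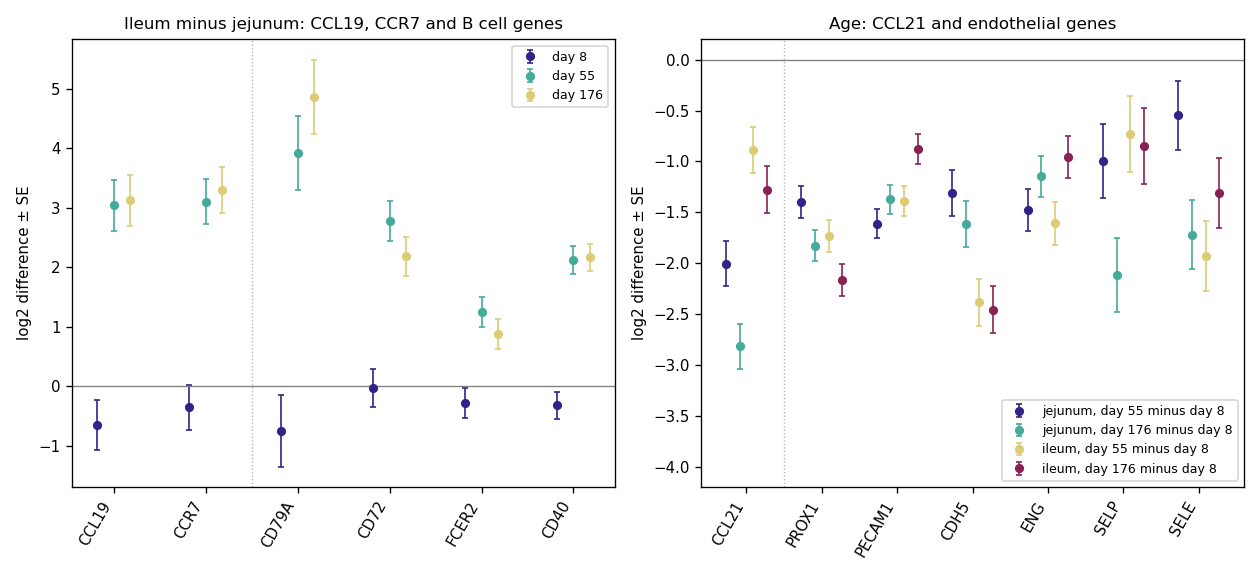
Log2 differences with their SE. On the left, ileum minus jejunum at 3 ages for CCL19, CCR7 and the 4 B cell genes tested, at or below 0 at day 8 and between 0.88 and 4.86 at days 55 and 176. On the right, days 55 and 176 minus day 8 in each tissue for CCL21 and the 6 endothelial genes tested, all below 0.

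The comparison of ages asks when the genes take on their adult level, and it cannot be told apart from the slide. In ileum CCL19 was higher at day 55 than at day 8 by 4.93 (SE 0.43), 30.5-fold, and at day 176 by 4.24 (SE 0.43), 18.9-fold. CCR7 was higher by 4.29 (SE 0.38), 19.6-fold, and 4.41 (SE 0.38), 21.2-fold. The ranges did not overlap for CCR7 at either age or for CCL19 at day 55. CCL21 went the other way, lower by −0.88 (SE 0.23) and −1.28 (SE 0.23), and these 6 differences were called beside 47.3% of all genes at day 55 and 48.6% at day 176. ACKR4 differed by 0.17 and 0.32 (SE 0.23 each) and was not called.

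In jejunum the same ligand, CCL21, had the larger differences with age. It was lower than at day 8 by −2.01 (SE 0.22), 4.02-fold, at day 55 and by −2.82 (SE 0.22), 7.04-fold, at day 176, without overlap at either age. CCL19 was higher at day 55 by 1.23 (SE 0.42), 2.35-fold, and ACKR4 by 0.79 (SE 0.22), 1.73-fold. ACKR4 was also higher at day 176 by 0.68 (SE 0.22), 1.61-fold, while CCL19 (0.47, SE 0.42) was not called. CCR7 differed by 0.84 and 0.75 (SE 0.38 each), which was not called in either case, beside 37.1% of all genes at day 55 and 49% at day 176. Between days 55 and 176, CCL21 of jejunum was the single member of the 4 called in either tissue, lower by −0.81 (SE 0.23), beside 36.9% of all genes in jejunum and 28.3% in ileum.

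Genes of lymphatic and venule endothelium, vessels that can make CCL21, fell with age. Of 6 genes tested, 5 were lower at day 55 and 6 at day 176 than at day 8 in jejunum, and 5 and 6 in ileum, and 0 were higher. Of all genes 18.9% and 22% were called lower in jejunum, and 23% and 22.7% in ileum. Smooth muscle genes moved the same way, with 3 of 4 lower at day 55 and 2 at day 176 in jejunum, 4 and 3 in ileum, and 0 higher. PROX1, the transcription factor that sets lymphatic identity, fell by 1.83 (SE 0.15, adjusted p = 4.125e-15) in jejunum and fell by 2.16 (SE 0.16, adjusted p = 1.791e-17) in ileum from day 8 to day 176. PECAM1, an adhesion molecule of all endothelium, fell by 1.61 (SE 0.14, adjusted p = 8.304e-14) and ENG, a coreceptor for TGF-beta, by 1.48 (SE 0.20, adjusted p = 1.738e-08) in jejunum from day 8 to day 55. CDH5, the cadherin of endothelial junctions, fell by 2.38 (SE 0.23, adjusted p = 4.468e-13) in ileum from day 8 to day 55. A share of vessels in the sampled tissue and expression per vessel cannot be told apart here.

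T cell genes rose with age in both tissues and B cell genes in ileum. All 9 T cell genes tested were called higher at day 55 in jejunum and 7 at day 176, and all 9 at both ages in ileum. Of all genes 18.1% and 26.9% were called higher in jejunum, and 24.4% and 25.9% in ileum. The 4 B cell genes were called higher in ileum at both ages, CD79A by 5.87 (SE 0.62, adjusted p = 7.749e-12) at day 55 and 5.46 (SE 0.62, adjusted p = 6.406e-11) at day 176, and CD72 was the 1 of 4 called in jejunum at both ages. CCL25 was higher at day 55 in jejunum by 0.85 (SE 0.11, adjusted p = 8.128e-09) and lower at day 176 in ileum by −0.63 (SE 0.12, adjusted p = 5.568e-06).

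On the arrays labelled day 8, 4 days after the injection by that label, T2 pools held the lowest levels of CCL19. In ileum CCL19 was at 11.89, 11.58, 10.80 and 10.21 in T1, at 7.99, 7.86 and 8.43 in T2 and at 13.18, 9.47, 9.51 and 11.17 in T3. All 3 T2 pools lay below every T1 and T3 pool. T2 was lower than T1 by −3.03 (SE 0.76), 8.16-fold, on the same slide, and this was called beside 0.428% of all genes. In 25 of the 67 runs that left out 1 array the difference was called, and it stayed between −3.33 and −2.77. With the sow set as a block, since a set of sows gave pools to every treatment, it was −3.10 and was not called. Nor was it called with a 2-way analysis of variance or each age alone (−3.002 in both), each tissue alone (−3.07), no filter (−3.03), normexp background correction (−2.85) or without the 5 arrays that stood apart (−3.12). T3 exceeded T2 by 2.74 (SE 0.76) without overlap and was not called, beside 0.0389% of all genes. T3 differed from T1 by −0.28 (SE 0.70), beside 1.43%.

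In jejunum at day 8 the order was the same. CCL19 was at 11.58, 12.96, 10.28 and 10.32 in T1, at 9.78, 9.72, 9.30 and 9.31 in T2 and at 13.52, 9.54, 10.36 and 11.35 in T3. T2 did not overlap with T1 and was lower by −1.76 (SE 0.70), which was not called, beside 0.013% of all genes. T3 exceeded T2 by 1.67 (SE 0.70) on the same slide, with T3 pool 2 inside the range of T2, and was not called beside 0.0195%. T3 differed from T1 by −0.09 (SE 0.70), a comparison with 0% of all genes called by limma and 632 genes at an unadjusted p below 0.05.

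CCR7 at day 8 followed the same pools. In ileum it was at 8.93, 7.99, 6.42 and 8.78 in T1, at 5.49, 5.70 and 5.51 in T2 and at 9.10, 5.46, 7.41 and 7.82 in T3. In jejunum it was at 9.53, 8.59, 6.85 and 8.61 in T1, at 5.42, 5.68, 5.93 and 7.10 in T2 and at 9.48, 5.29, 8.08 and 7.83 in T3. T2 lay below T1 without overlap in ileum (−2.46, SE 0.68) and with overlap in jejunum (−2.36, SE 0.63), and T3 pool 2 had the lowest CCR7 of all day 8 arrays in both tissues. None of these differences was called. Without the 5 arrays that stood apart the jejunum difference of T2 and T1 was −2.72 and was called. With normexp the ileum difference was −1.52.

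CCL21 and ACKR4 showed no such order at day 8. CCL21 of jejunum was at 11.09, 11.12, 10.94 and 10.96 in T1, at 11.19, 11.05, 11.17 and 11.01 in T2 and at 11.15, 11.43, 11.67 and 11.15 in T3, so T3 lay just above T1 by 0.32 (SE 0.37). In ileum ACKR4 was at 7.79, 6.68, 8.92 and 5.67 in T1, at 7.65, 8.74 and 8.62 in T2 and at 8.31, 8.40, 8.36 and 7.67 in T3. T1 was spread over both other groups. Its mean lay below T2 and T3, with T2 minus T1 at 1.07 (SE 0.40) and T3 minus T1 at 0.92 (SE 0.37), and these differences were not called. Without T1 pool 11, an array that stood apart, they were 1.62 and 1.47, and without T1 pool 12 they were 0.54 and 0.39. Without the 5 arrays that stood apart T3 minus T1 was 1.47 and was called.

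The day 8 levels of CCL19 and CCR7 moved with FABP6 and CD79A. Over the 12 pools, each the mean of its jejunum and ileum arrays except T2 pool 8, which had only its jejunum array that stood apart, CCL19 correlated with FABP6 at r = 0.76 and with CD79A at r = 0.77, and within treatments at 0.54 and 0.59. CCR7 correlated at 0.62 and 0.65, and within treatments at 0.35 and 0.49. CCL21 correlated at −0.33 and −0.17, and within treatments at −0.57 and −0.50. ACKR4 correlated at −0.08 and −0.24, and within treatments at 0.19 and −0.14. The 2 arrays of a pool also went together, with r = 0.98 for CCR7, 0.88 for CCL19 and 0.98 for FABP6 over 11 pools, against 0.12 for CCL21 and a median of 0.16 over all genes. ACKR4 had −0.43, but 0.28 without the 2 farthest pools. At days 55 and 176 CCR7 had −0.27 and 0.11, and CCL19 had 0.31 (−0.26 without the 2 farthest pools) and −0.47. By the methods, and if the labels hold, the day 8 arrays of the same pool share their piglets. The part of FABP6 and CD79A in the T2 difference was not tested. The B cell genes CD79A of T2 and T1 differed by −2.52 in ileum (adjusted p = 0.2836 by limma) and −2.77 in jejunum (adjusted p = 0.6097).

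**Figure D3:**
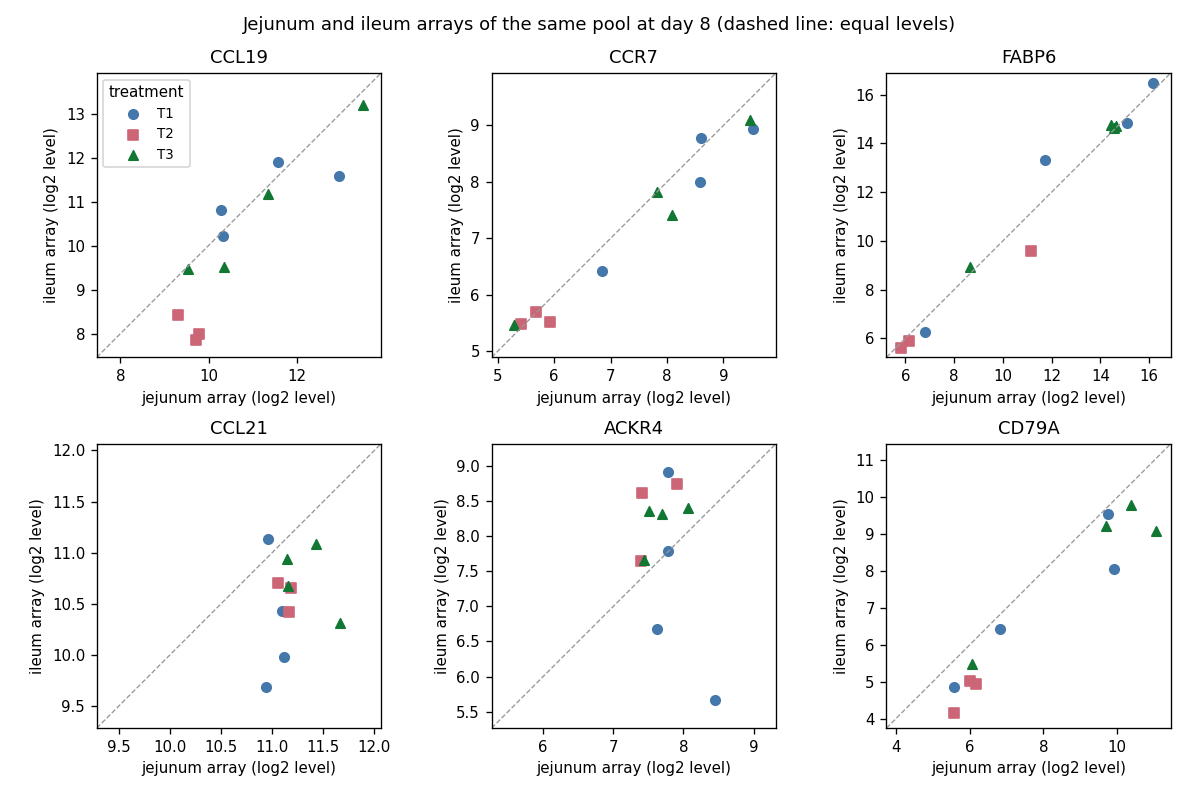
Level on the jejunum array (x axis, log2) against the ileum array (y axis, log2) of the same pool at day 8, 11 pools, with T1 as circles, T2 as squares and T3 as triangles and a dashed line at equal levels. The levels of both arrays rose together for CCR7, CCL19, FABP6 and CD79A, with all 11 pools of CD79A below the line, and did not for CCL21 and ACKR4.

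At day 55 no treatment difference of the 4 genes was called in the fit of all ages together. With each age alone, T3 minus T2 of CCL19 in jejunum was 1.86 and was called. CCL19 of jejunum was at 12.54, 11.38, 11.65 and 13.19 in T1, at 10.37, 11.18 and 11.03 in T2 and at 12.99, 12.34, 12.85 and 12.43 in T3. T2 lay below T1 by −1.33 (SE 0.76, same slide) and below T3 by 1.79 (SE 0.76), without overlap in both cases, beside 1.89% and 1.07% of all genes called, and T3 against T1 had 9.26%. T2 exceeded T1 in ACKR4 of jejunum by 0.72 (SE 0.40), also without overlap. In ileum CCL19, CCL21, CCR7 and ACKR4 differed by −0.63 to 0.33 between treatments, beside 0.143%, 14.6% and 9.34% of all genes for T2 against T1, T3 against T1 and T3 against T2.

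At day 176 ACKR4 had opposite differences in the tissues. In jejunum it was at 8.71, 9.36, 9.07 and 8.96 in T1, at 7.43, 7.23 and 6.98 in T2 and at 8.61, 9.09, 9.06 and 9.89 in T3. All T2 pools lay below all others, by −1.81 (SE 0.40), 3.51-fold, against T1 on the same slide, and T3 exceeded T2 by 1.95 (SE 0.40), 3.87-fold. Both were called, beside 15.2% and 7.41% of all genes. In ileum ACKR4 was at 7.17, 6.40, 7.30 and 7.06 in T1, at 9.40, 9.76, 8.94 and 9.52 in T2 and at 7.81, 8.53 and 8.77 in T3. Here T2 lay above all others and T1 below all others. T2 exceeded T1 by 2.42 (SE 0.37), 5.35-fold, and this was called beside 0.263% of all genes, with T1 and T2 on different slides. T3 exceeded T1 by 1.38 (SE 0.40) and fell short of T2 by −1.04 (SE 0.40, same slide), which were not called, beside 0.85% and 0% of all genes, with 908 genes at an unadjusted p below 0.05 for the latter. T3 minus T1 was called with the 75th percentile of each array as the scale (1.56) and without the 5 arrays that stood apart (1.38). It was also called in 3 of the 67 runs that left out 1 array.

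The opposite sign was itself called. The T2 minus T1 difference of ACKR4 was larger in ileum than in jejunum by 4.23 (SE 0.55), beside 4.74% of all genes, and the T3 minus T2 difference smaller by −2.99 (SE 0.57), beside 0.357%. For T3 minus T1 none of the 4 genes was called in this way at day 176, beside 0.0876% of all genes. At day 8 none was called either, beside 0%, 0.026% and 0% for T2 minus T1, T3 minus T1 and T3 minus T2, where limma gave 1378, 1666 and 555 genes at an unadjusted p below 0.05. At day 55 none was called beside 0.026%, 5.67% and 1.24%. Leaving out any 1 array kept the 3 called treatment differences of ACKR4, between −1.92 and −1.69 and between 1.71 and 2.14 in jejunum and between 2.22 and 2.57 in ileum. CCL25, the third ligand of ACKR4, was called in none of these treatment comparisons.

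CCL19 of jejunum was again low in T2 at day 176. It was at 11.13, 11.91, 12.39 and 12.21 in T1, at 9.17, 11.02 and 8.18 in T2 and at 12.99, 11.73, 13.34 and 10.11 in T3. T2 lay below T1 without overlap by −2.45 (SE 0.76), 5.47-fold, on the same slide, and T3 exceeded T2 by 2.58 (SE 0.76), 6-fold, with T3 pool 4 inside the range of T2. Both were called. The T3 minus T2 difference was not called without T2 pool 8 (1.94), T3 pool 1 (2.27) or T3 pool 3 (2.15), without the 5 arrays that stood apart (2.58) or with each age alone (2.55). The lowest value came from T2 pool 8, the array with the lowest agreement of all, and without it the T2 minus T1 difference was −1.81 and was not called. Without T1 pool 11 it was −2.29 and was not called either. Nor was it called with each age alone (−2.42) or without the 5 arrays that stood apart (−2.06). In ileum T2 minus T1 was 0.93 (SE 0.70), and the tissues differed in this contrast by 3.38 (SE 1.03), which was called.

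On the same 3 jejunum T2 arrays CD79A was at 5.58, 6.85 and 1.82, and lower than in T1 by −3.79 (SE 1.10, adjusted p = 0.01752 by limma). FABP6 was at 18.42, 18.14 and 7.52 there, against 17.58 to 18.40 in T1. The number of genes called between T2 and T1 in this tissue was 4688, and 534 without T2 pool 8. The part of B cell content and of this array in the CCL19 difference was not tested. CCR7 of jejunum was at 6.70, 7.45, 8.59 and 8.24 in T1, at 7.66, 7.28 and 8.36 in T2 and at 9.19, 7.65, 9.13 and 9.38 in T3, with T3 minus T1 at 1.10 (SE 0.63), not called beside 0.211% of all genes. CCL21 differed by −0.19 to 0.47 between treatments in both tissues at day 176.

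Blood was compared with the tissues at day 8, since CCR7 is carried by circulating naive lymphocytes and the ligands are made in tissue. CCR7 ranked high on the blood arrays, at percentiles of 92.7 to 95.1 among all probes, against 42.7 to 75.02 on the tissue arrays of that day. After quantile normalization over all 35 arrays of day 8, CCR7 was lower in jejunum than in blood by −6.22 (SE 0.38) and in ileum by −6.57 (SE 0.39). With the normexp background correction the differences were −4.90 and −5.08, and with the 75th percentile of each array as the scale −6.46 and −6.94, where the median of all genes moved from −0.21 to −1.27 and −1.43. CCL19 was higher in jejunum by 2.20 (SE 0.40) and in ileum by 1.56 (SE 0.41). CCL21 and ACKR4 were not well above background on any of the 12 blood arrays. Set against the lowest signal well above background, CCL21 was at least 20.7-fold higher in jejunum and at least 13.6-fold higher in ileum, and ACKR4 at least 2.11-fold and 2.32-fold. These bounds hold for the quantile normalization only. With normexp the log2 differences were 3.55 in jejunum and 3.09 in ileum for CCL21, which is below its bounds, and 1.52 and 1.64 for ACKR4. All 8 differences were called, beside 75.6% of all genes for jejunum and 74% for ileum. No slide held both blood and tissue of day 8, and by the methods their RNA was extracted by different procedures. Blood and tissue thus cannot be told apart from slide and extraction here. The fit also left out that blood and tissue of a pool share piglets.

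**Figure D4:**
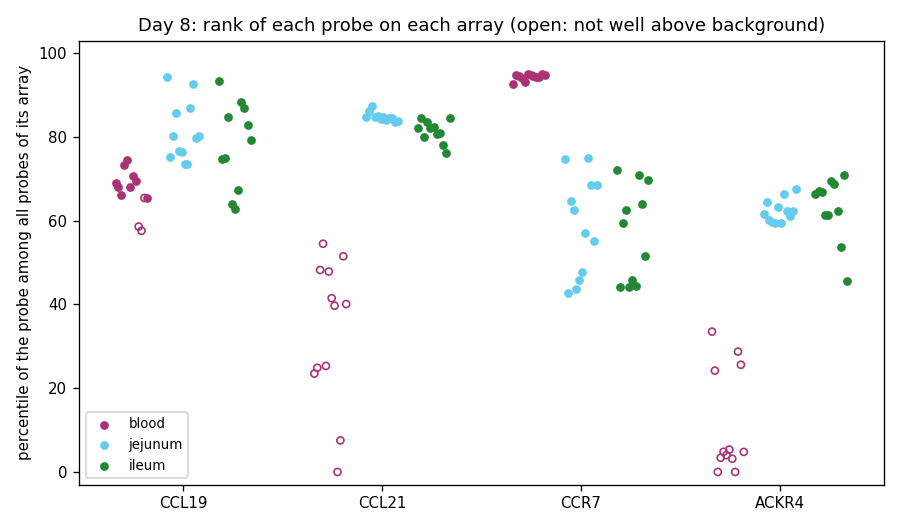
Percentile of each probe among all probes of its array at day 8 (y axis) for blood, jejunum and ileum, 1 point per array, open where the spot was not well above background. CCR7 ranked at 92.7 to 95.1 on the 12 blood arrays and at 42.7 to 75.02 on the tissue arrays, CCL21 and ACKR4 ranked higher on every tissue array than on any blood array, and CCL19 overlapped, at 57.6 to 74.5 in blood and 62.9 to 94.3 in the tissues.

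Within blood no treatment difference of CCL19, CCL21 or CCR7 was called. CCR7 was at 9.77, 9.78, 10.09 and 10.00 in T1, at 9.24, 10.16, 9.92 and 9.91 in T2 and at 9.04, 9.92, 9.86 and 9.60 in T3, and no difference was called. CCL19 was low, at 3.36, 3.23, 4.21 and 4.21 in T1, at 5.38, 4.52, 4.86 and 4.70 in T2 and at 4.66, 4.54, 4.30 and 5.22 in T3. Every T2 and T3 pool lay above every T1 pool, by 1.11 (SE 0.29) and 0.93 (SE 0.29), and CCL19 was well above background on 1 of 4 arrays of T1 and on all of T2 and T3. Neither was called, beside 0.00694% and 0.00347% of all genes, with 3085 and 2030 genes at an unadjusted p below 0.05 by limma, and T1 lay on another slide. With normexp the differences were 0.46 and 0.32. CCL19 was called in 0 of the 12 runs that left out 1 blood array. The number of all genes called in blood hung on single arrays. Without T1 pool 12 it went from 2 to 815 for T2 minus T1 and from 1 to 565 for T3 minus T1.

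The genes with the pattern most like each of the 4 were sought among 2201 genes with a symbol over the 67 tissue arrays, which share groups and slides. CCR7 went with CD40, the costimulatory receptor of B cells and dendritic cells, at r = 0.97, and at 0.91 after the group means were removed. CD180, a B cell receptor related to Toll-like receptors, followed at 0.95, the macrophage elastase MMP12 at 0.94, LTA at 0.94 and the complement inhibitor CD55 at 0.93. CCL19 went with CD79A (0.92), the mitochondrial carrier UCP2 (0.91), CD72 (0.88), the lactate dehydrogenase subunit LDHB (0.88) and the Toll-like receptor TLR10 (0.88). After the group means were removed CD79A had 0.68 and the others 0.42 to 0.62. CCL21 went with the tetraspanin CD81 (0.90), GGTA1P (0.90), the kynurenine enzyme KMO (0.89), the cathepsin CTSH (0.88) and the ceramide synthase CERS4 (0.87). ACKR4 had no close partner, with the complement component C5 (0.49), FUT1 (0.48), ERH (0.46), COX6C (0.45) and PSMB10 (0.45) at the top. Among themselves, CCL19 and CCR7 had r = 0.87 and 0.46 within groups, CCL19 and CCL21 −0.23 and 0.28, and CCR7 and ACKR4 0.02 and −0.12.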

How the data were processed

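RNA of pools of 4 piglets was measured on 79 one-colour Agilent arrays. The authors deposited the intensity of each spot as Agilent Feature Extraction 10.7.3.1 wrote it, background-subtracted and not normalized between arrays, with the median signal and background as further intensities. Their table of log2 values, which the authors deposited normalized and centred per probe, was used only to see which array each of its columns held. That was judged by the correlation of the same pool over 41405 probes, which was above 0.4 and the highest of its set for every column counted as a match.

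Signals under 1 were set to 1 before log2. After control spots and flagged spots (not uniform, or outliers) were dropped, 41432 probes without a missing value were quantile normalized over the 67 tissue arrays. Blood, and the 35 arrays of day 8, were normalized separately. Probes reaching the 20th percentile on all arrays of at least 1 group were kept, and probes of a gene were averaged. A symbol was available for 5461 probes (12.5%) through RefSeq. The fit over the 18 tissue groups used limma (version 3.58.1, R version 4.3.3), and the scripts were tested on simulated data. At least-fold values use, per array, the lowest signal of a probe well above background. Normexp (offset 50) was run on the median signals, as no mean signal was present.

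The genes and the lists were chosen with earlier results of these data known. List genes are named as at most the 2 largest rises and 2 largest falls called per comparison, with CCL25 always, and FABP6, GATA4 and CD79A as markers. Groups follow the labels. Pools of day 8 come from the same piglets in the 3 tissues and from shared sets of sows across treatments by the methods. At days 55 and 176 residuals of jejunum and ileum with the same pool number correlated above 0.1 in 2 of 11 and 1 of 10 pairs, against 7 of 11 at day 8. Their mean correlation was 0.064 and 0.046, against −0.006 between different pools at both ages. At day 8 these means were 0.176 and −0.018. Since not every pair of day 8 passed 0.1 either, pairing at the later ages can be neither shown nor excluded in this way. Since no source says that pools came from separate farms or batches, p-values measure the spread between pools, whose number limits the precision.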

Additional observations from a re-analysis of the deposited data

Results flagged for a closer look

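Of 87 groups of 4 arrays examined, 9 held an array far from the other 3, and chance flags about 1 in 20 groups. For the chemokine genes these were ACKR4 of ileum T3 pool 1 at day 55 (8.62, the others at most 7.82), ACKR4 of ileum T3 pool 4 at day 8 (7.67, the others at least 8.31), CCR7 of jejunum T3 pool 2 at day 176 (7.65, the others at least 9.13) and CCL21 of jejunum T3 pool 1 at day 55 (9.55, the others at most 9.29). For the markers they were CD79A of ileum T3 pool 2 at day 8 (5.49, the others at least 9.08), FABP6 of the same array (8.94, the others at least 14.63), FABP6 of jejunum T3 pool 2 at day 8 (8.66, the others at least 14.41), FABP6 of jejunum T2 pool 6 at day 8 (11.16, the others at most 6.16) and FABP6 of jejunum T3 pool 2 at day 55 (15.79, the others at least 17.88). Pool 2 of T3 at day 8 also had the lowest CCR7 of all day 8 arrays in both tissues.

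Of 48 differences between tissues or ages in the same contrast, 9 were called. Per contrast 0% to 34.4% of all genes were called, and nothing is read from the 9. The ileum minus jejunum difference rose from day 8 to day 55 by 3.69 for CCL19, 1.12 for CCL21 and 3.46 for CCR7, beside 34.4% of all genes called. From day 8 to day 176 it rose by 3.77, 1.54 and 3.66, beside 20.8%. For CCL21 the sign turned, from −0.61 at day 8 to 0.51 at day 55 and 0.93 at day 176. These 6 rest on the labels of days 8 and 55, or of day 8. The T2 minus T1 difference at day 176 was larger in ileum than in jejunum by 3.38 for CCL19 and 4.23 for ACKR4, beside 4.74% of all genes. The T3 minus T2 difference of ACKR4 was smaller in ileum by −2.99, beside 0.357%.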

How the results depend on the processing

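The number of chemokine gene differences called was 12 for age (12 to 14 when 1 array was left out), 8 for blood against tissue (8 to 8), 5 for ileum minus jejunum (5 to 6), 0 for treatments in blood (0 to 0), 5 for treatments at days 55 and 176 (3 to 6) and 1 for treatments at day 8 (0 to 1). Of all genes 28.3% to 49% were called per age comparison and 2.5% to 39.8% for ileum minus jejunum. Against blood it was 75.6% for jejunum and 74% for ileum. Treatment comparisons had 0% to 0.00694% in blood, 0% to 15.2% at days 55 and 176 and 0% to 1.43% at day 8. Nothing is read from the counts of chemokine genes. The count for treatments at day 8 was 0 with a 2-way analysis of variance, each age alone, each tissue alone, no filter, normexp and the sow set as a replicate block within day 8, and 2 without the 5 arrays that stood apart. Those 2 were CCR7 of jejunum T2 minus T1 and ACKR4 of ileum T3 minus T1. CCL19 of ileum T2 minus T1 at day 8 stayed negative throughout, at −3.10 with the replicate block. With the slide held fixed, an alternative chosen after seeing the data, the count for ileum minus jejunum was 1 where it was 3 before. The calls of CCL19 (−1.01), CCL21 and CCR7 at day 176 were lost, and ACKR4 (−5.03) was called in their place. The cause was not tested. The slide as a random block could not be fitted, since each group lay on 1 slide. With the pool number as a replicate block the counts were 13 for age, 5 for ileum minus jejunum, 8 for blood against tissue and 0 for treatments in blood.

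The number of all genes called moved by over 1.5 times in many treatment comparisons, as for ileum T2 minus T1 at day 8, with 132 and between 3 and 1252 when 1 array was left out. With normexp ileum minus jejunum at day 55 had 5733 genes in place of 12260. Genes near background, as CCL19 in blood, are limited by their signal.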
